A study of Rattus norvegicus with 18 samples.

Results

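The set described here is 9 receptor genes through which liver cells sense foreign chemicals and lipids, namely Ppara, Ppard, Pparg, Rxra, Nr1i2, Nr1i3, Ahr, Hnf4a and Nr5a2. Every array probe whose accession maps to 1 of these symbols was taken, which gave 14 probes of 45598 on the array. All 9 genes were found, with 2 probes each for Ppara, Nr1i3 and Nr5a2, 3 for Hnf4a and 1 for each other gene. All 14 probes lay well above background on all 18 arrays, so none depended on the filter on dim probes that left 25267 probes for testing. Probes of a gene are numbered by mean brightness, from the brightest. Levels are log2 Cy3 signals relative to the 75th percentile of the array, and since probes differ in brightness for the same amount of RNA, no probe's level is set against that of another.

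The study asked, by its title, how p-dialkoxy chlorobenzenes act on rat primary hepatocytes, that is, liver parenchymal cells taken from the animal and held briefly in culture. The cells were cryopreserved hepatocytes of male Sprague Dawley (SD) rats. For all 18 samples they were cultured for 24 h before a further 24 h of exposure. The compounds DDMB, DDEB, CDMB and CDEB, known here only by these codes, were each given at 300 µM to 3 cultures. VC_1 and VC_2 are 3 DMSO samples each. VC_1 is the control for DDMB, CDMB and CDEB, and VC_2 the control for DDEB, which was hybridised on another chip lot. The labels give no age and do not say whether the cultures came from different animals or whether animals were pooled. P-values therefore measure the spread between these samples.

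Most of these genes encode nuclear receptors, transcription factors switched on by small fat-soluble ligands. PXR (Nr1i2) and CAR (Nr1i3) respond to drugs and foreign chemicals and induce Cyp3a and Cyp2b genes, while PPARalpha (Ppara) responds to fatty acids and fibrate drugs and induces Cyp4a genes and fatty acid oxidation. All of these bind DNA as heterodimers with RXRalpha (Rxra), and HNF4alpha (Hnf4a) and LRH-1 (Nr5a2) maintain hepatocyte gene expression. The aryl hydrocarbon receptor (Ahr) belongs to another protein family, is activated by planar aromatic chemicals and induces Cyp1a1. Ligands mainly change what a receptor protein does, so the mRNA level of a receptor and that of its target are separate measurements.

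Of the readout promoters searched, those of Cyp3a23-3a1 and Cyp2b2, that of Cyp3a23-3a1 showed the letters of a receptor site. It is printed because its gene was the readout called with both DDMB and DDEB. The sequences are the 250 bases upstream of the RefSeq gene start in build GRCr8, read 5′ to 3′ on the strand of the gene, which is the minus strand of the chromosome. Capitals mark 2 motifs. The first is AGTTCA repeated in the same direction after 3 spacer bases, of the type bound by PXR with RXRalpha, found here on the opposite strand and so printed as TGAACT letters. The second is CAAAGTCCA, a form of the HNF4alpha site, and the motifs do not overlap. The promoter of Cyp3a2, another drug-metabolising Cyp3a enzyme, stands beside it for comparison.
Cyp3a23-3a1, chr12:14398804-14399053: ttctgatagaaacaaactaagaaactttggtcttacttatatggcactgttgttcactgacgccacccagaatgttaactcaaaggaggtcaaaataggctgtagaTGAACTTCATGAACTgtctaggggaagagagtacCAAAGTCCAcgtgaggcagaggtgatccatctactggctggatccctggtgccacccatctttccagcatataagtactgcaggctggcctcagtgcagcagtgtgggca
Cyp3a2, chr12:14343858-14344107: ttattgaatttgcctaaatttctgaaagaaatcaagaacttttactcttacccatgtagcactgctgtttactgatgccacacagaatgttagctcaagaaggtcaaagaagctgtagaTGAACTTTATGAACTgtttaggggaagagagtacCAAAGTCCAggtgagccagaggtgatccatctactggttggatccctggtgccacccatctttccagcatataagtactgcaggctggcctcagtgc

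The repeat lay at bases -144 to -130 from the start of Cyp3a23-3a1 and at -131 to -117 from that of Cyp3a2, and the HNF4alpha letters at -110 to -102 and at -97 to -89. Aligned, the windows shared 210 identical bases with 25 mismatches and 30 gap bases, an identity of 89.4% over the aligned bases. In all, 11 patterns were searched on both strands of 33469 such windows, and the 4 given here were kept after their matches were seen. The AGTTCA repeat was looked for because this site of the gene was already known, so its rarity is a description. It was present in 2 (0.00598%), these being Cyp3a23-3a1 and Cyp3a2. CAAAGTCCA was present in 113 (0.338%), and among the receptor and readout genes with a window Cyp3a23-3a1 was the one that held it. The aryl hydrocarbon receptor core TNGCGTG, in 4.09% of all windows, was present in that of Ppara alone among these genes. The PPAR type repeat, AGGTCA repeated after 1 spacer base, was in 17 windows (0.0508%) and in none of theirs. Of the other patterns, the unrepeated letters AGGTCA (14.1% of windows) and AGTTCA (12.2%) were present in Cyp3a23-3a1, the first also in Nr5a2 and the second also in Nr1i2, and TATAAA (12.9%) was in none of these genes. A form of the 3-base repeat that allows other letters (0.0926%) was in Cyp3a23-3a1 alone among them, and similarly loosened repeats with 1 and 4 spacer bases and an everted repeat with 6 were in none. No window was available for Ppard, Cyp4a1 and Cyp1a1, so their promoters were not searched. The windows searched were those of Ppara, Pparg, Rxra, Nr1i2, Nr1i3, Ahr, Hnf4a, Nr5a2, Cyp3a23-3a1 and Cyp2b2. These are letter matches in one window and say nothing of binding.

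Of the 18 arrays, 4 stood apart within their groups. On single arrays 61.0% to 64.3% of probe spots lay well above background, with no saturated spot. The value at the 75th percentile was 421 to 640. VC_1 replicate 3, VC_2 replicate 3, DDMB replicate 2 and DDEB replicate 3 differed from the other arrays of their groups for many receptor probes, as given below, and DDEB replicate 3 was alone on its slide. DDMB replicate 1 deviated about as much upward as DDMB replicate 2 did downward, so DDMB replicate 2 is the low end of a spread. The deviations of VC_2 from its mean correlated with those of the same-numbered VC_1 array over all tested probes (r = 0.632, 0.468 and 0.810), and the labels do not say whether the control sets share cultures. VC_1 and DDMB lay on one slide, CDMB and CDEB together on another, and VC_2 with DDEB replicates 1 and 2 on a further one. For CDMB and CDEB against VC_1 or against DDMB, compound and slide cannot be told apart. A dim spike-in control, as a percent of the signal of a bright one, gave 1.98 to 2.04 in VC_1, 1.78 to 2.02 with DDMB, 1.23 to 1.32 with CDMB and 1.21 to 1.28 with CDEB. It gave 1.73 to 1.83 in VC_2, 1.09 and 1.18 on DDEB replicates 1 and 2, which share the slide of VC_2, and 1.66 on DDEB replicate 3. This measure thus differed between DDEB and VC_2 within a slide as well as between slides, and its part in the results was not tested.

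The cells carried hepatocyte markers. All 10 of the listed ones, among them Alb, Ttr and Cps1, lay well above background on every array. Of 10 Kupffer cell markers 3 were measured well enough to test, and C1qa, Cd163, Cd5l, Csf1r and Ptprc lay well above background on no array. The same held for Lyve1, Tek and Tie1 of the endothelial list, Hand2 and Lrat of the stellate list, Spp1 of the cholangiocyte list and Cfd, Lep and Retn of the adipocyte list. In these bulk samples, fewer cells of a type and less RNA per cell cannot be told apart.

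In DMSO cells the receptors ranged from a wide spread between replicates to a narrow one. In VC_1 the PXR gene Nr1i2 had a level of 4.43 ± 0.50 (mean ± SD, n = 3), the CAR gene Nr1i3 0.59 ± 0.73 on probe 1, Ppara 2.52 ± 0.71 on probe 1 and Hnf4a 4.59 ± 0.48 on probe 1. The SD was far smaller for Ahr, at -1.24 ± 0.05, and for Nr5a2 probe 1, at 2.38 ± 0.06. Rxra lay at -1.15 ± 0.22, Pparg, the adipocyte regulator, at -0.74 ± 0.19, and Ppard, the widely expressed PPAR, at -3.32 ± 0.18. In VC_2 the same probes gave 4.65 ± 0.47 (Nr1i2), 0.30 ± 0.78 (Nr1i3), 2.31 ± 0.69 (Ppara), 4.46 ± 0.48 (Hnf4a), -1.24 ± 0.15 (Ahr), 2.06 ± 0.07 (Nr5a2), -1.20 ± 0.33 (Rxra), -0.98 ± 0.34 (Pparg) and -3.25 ± 0.16 (Ppard). The control sets, which differ in chip lot, did not overlap for either Nr5a2 probe. Probe 1 was at 2.32 to 2.44 in VC_1 and 2.00 to 2.14 in VC_2 (limma adjusted p = 0.00133), and probe 2 was also lower in VC_2 on all arrays (adjusted p = 0.0554). These 2 of 14 receptor probes lay wholly lower in VC_2, as did 17.6% of all tested probes, and 1 of 14 was called, against 21.8% of all. The residual SD of the fit over all 18 arrays was 0.55 for Nr1i3 probe 1 and 0.52 for Ppara probe 1, larger than that of 94.5% and 93.4% of tested probes. It was 0.09 for Ahr and 0.05 for Nr5a2 probe 1, where 18.3% and 2.20% of tested probes had a smaller one. The median was 0.315 over the 14 receptor probes and 0.164 over all tested probes.

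**Figure D1:**
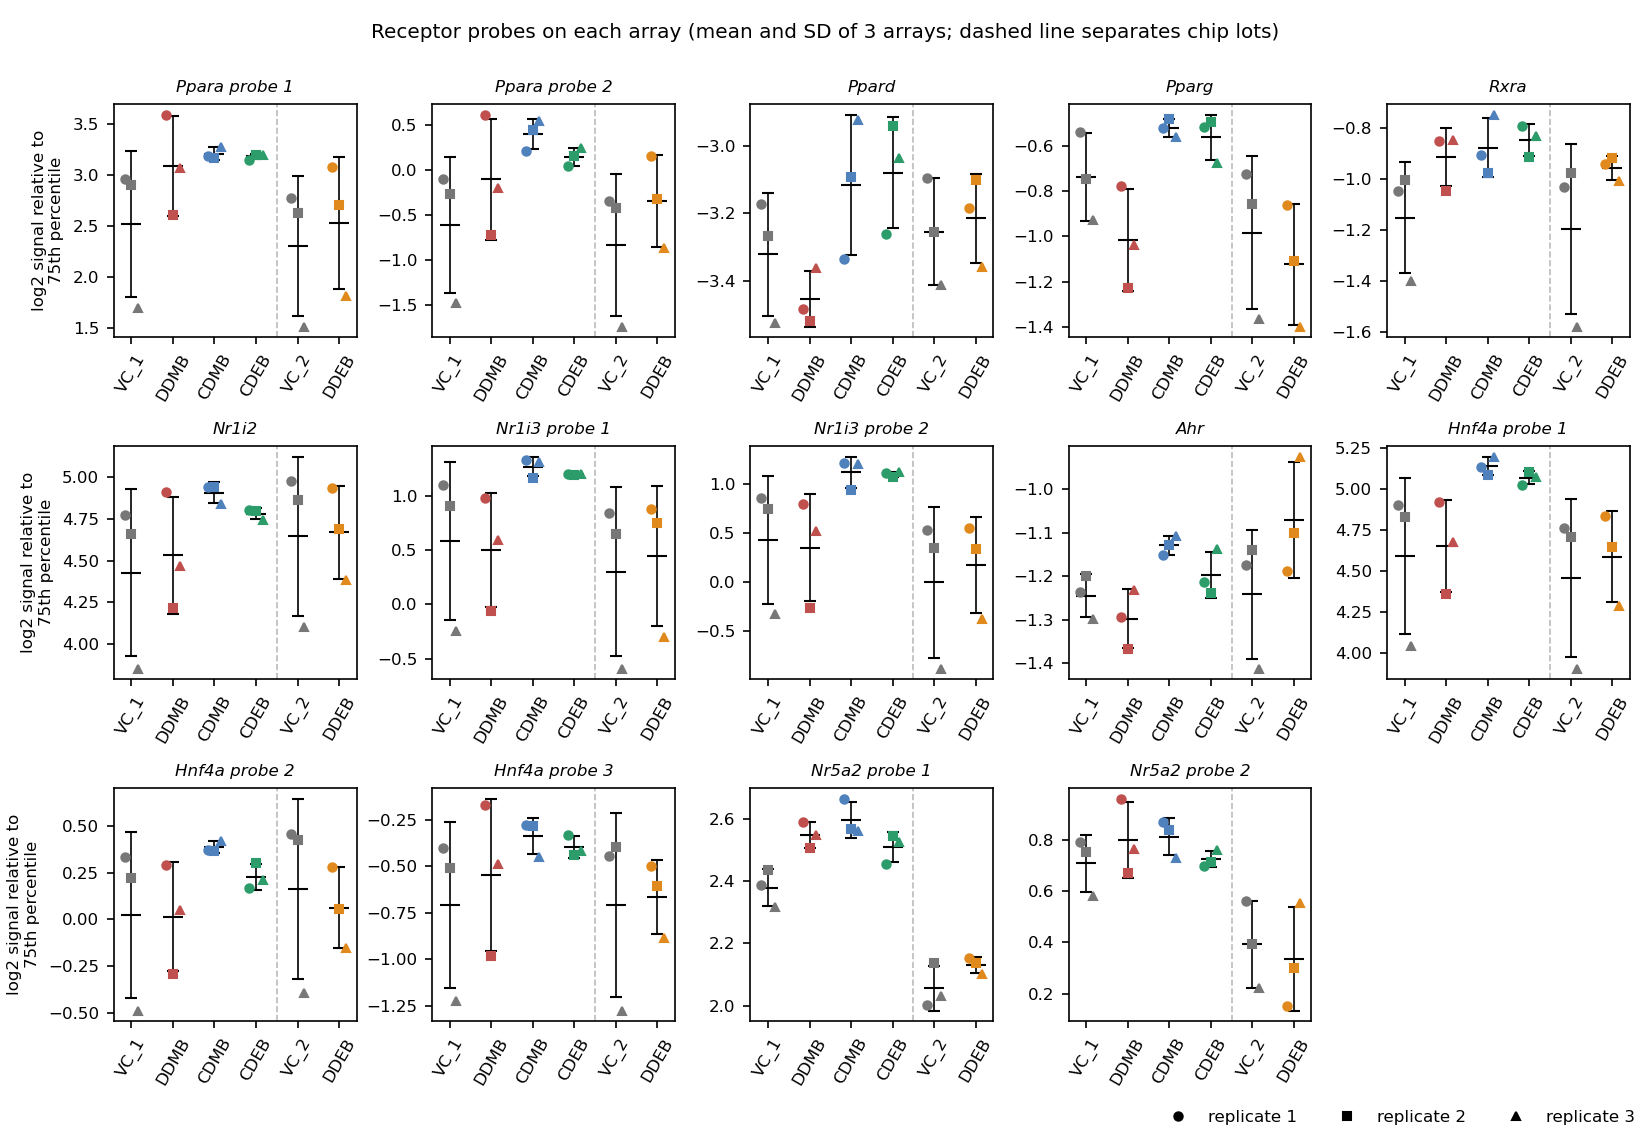
Level of each of the 14 receptor probes on every array, as log2 signal relative to the 75th percentile (y axis, its own scale in each panel), by group (x axis); points are arrays, with a symbol for each replicate number, and bars give the mean and SD of 3 arrays. For Ppara, Nr1i2, Nr1i3 and Hnf4a the replicate 3 array of each DMSO group lies lowest in its group, and the CDMB and CDEB arrays lie close together.

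No receptor probe was called changed by any compound. With limma at an adjusted p below 0.05 over all tested probes, 0 of 14 receptor probes passed for DDMB, where 0.558% of all probes did, 0 of 14 for CDMB (0.0396%), 0 of 14 for CDEB (0.107%) and 0 of 14 for DDEB (0.839%). The lowest adjusted p of a receptor probe was 0.289 for DDMB, 0.202 for CDMB, 0.362 for CDEB and 0.344 for DDEB. At an unadjusted p below 0.05 the counts were 1, 3, 2 and 0 of 14, against 10%, 13.1%, 13.1% and 14.9% of all tested probes. Several 95% intervals reached past 1 on the log2 scale, so changes of that size in the more variable receptors were not resolved with 3 arrays a group. The median change of the 14 probes was 0.08 with DDMB, 0.37 with CDMB, 0.31 with CDEB and 0.10 with DDEB. Over all tested probes it lay between 0.00433 and 0.0162.

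The receptor levels with CDMB and CDEB lay mostly above those of VC_1. Of 14 probes, 10 had all 3 CDMB arrays above all 3 VC_1 arrays, as did 13.3% of all tested probes, and 7 of 14 had all CDEB arrays above VC_1 (15.6% of all). The estimated change was above 0 for 14 of 14 probes with either compound, against 53.1% of all tested probes with CDMB and 50.9% with CDEB. With CDEB it was above 0 for 12 of 14 without VC_1 replicate 3. The corresponding counts of arrays wholly above control were 1 of 14 for DDMB (8.88% of all) and 0 of 14 for DDEB (10.1%). No receptor probe had all its treated arrays below control in any of the 4 comparisons, as 5.54% (DDMB), 12% (CDMB), 14.2% (CDEB) and 6.02% (DDEB) of all tested probes had. DDMB, CDMB and CDEB share the VC_1 arrays, and without VC_1 replicate 3 the median changes were -0.14, 0.17 and 0.12. Without VC_2 replicate 3 that of DDEB was -0.16.

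**Figure D2:**
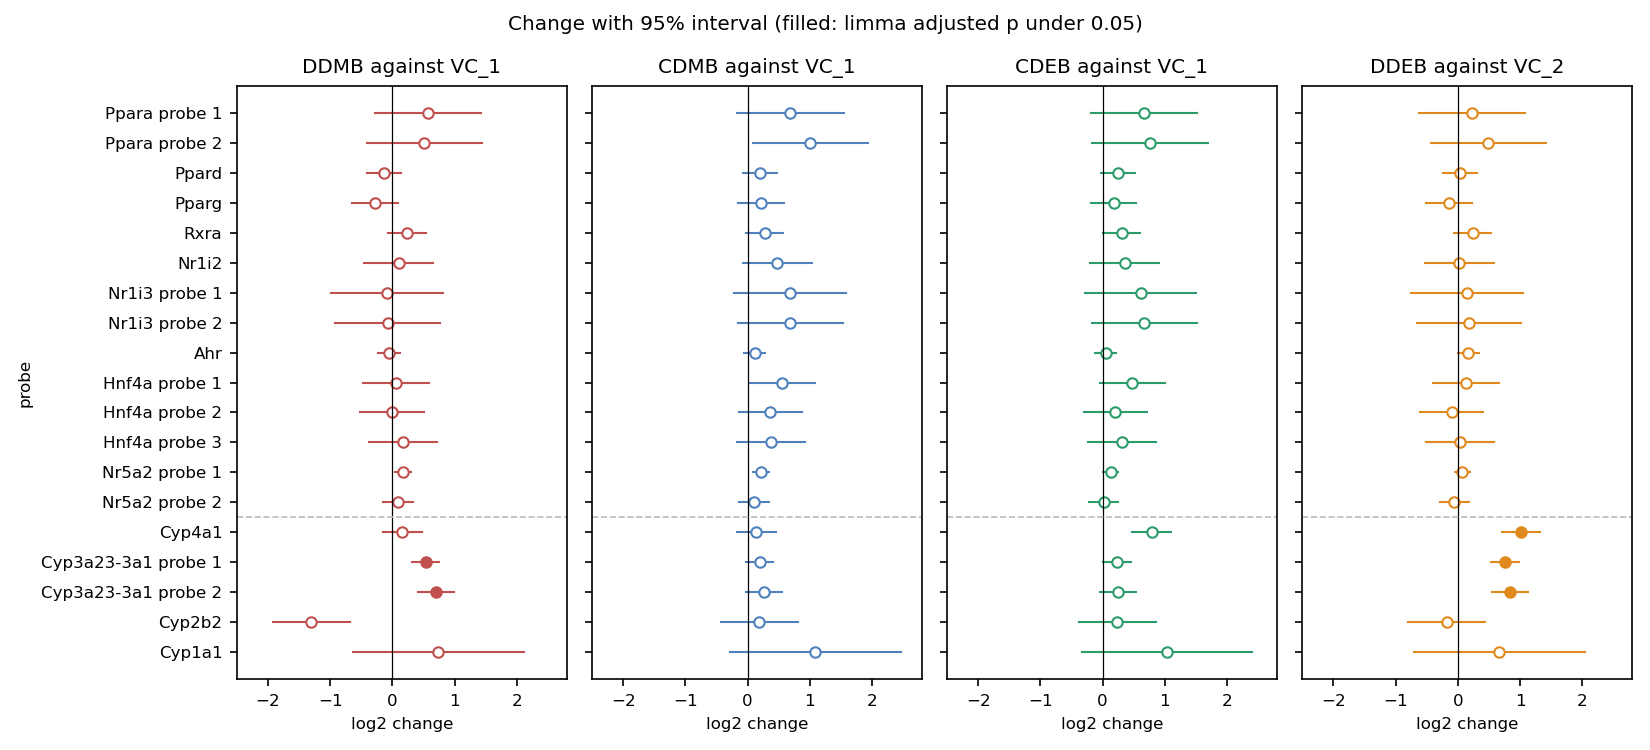
Log2 change against the control (x axis) of each receptor probe and, below the dashed line, each readout probe (y axis) for the 4 compounds, with 95% intervals of the limma fit; filled points have an adjusted p below 0.05. None of the receptor points is filled, while Cyp3a23-3a1 is filled for DDMB and DDEB and Cyp4a1 for DDEB.

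Nr1i2 encodes PXR, the main inducer of Cyp3a genes. In VC_1 its levels were 4.77, 4.66 and 3.85, and with DDMB 4.91, 4.22 and 4.47. With CDMB they were 4.94, 4.94 and 4.84, and with CDEB 4.80, 4.79 and 4.74. In VC_2 they were 4.97, 4.86 and 4.10, and with DDEB 4.93, 4.69 and 4.38. The replicate 3 control arrays were the lowest of all, the CDMB arrays all lay above VC_1, and the other groups overlapped their control. The changes were 0.10 ± 0.26 (log2 ± SE) with DDMB, 0.48 with CDMB, 0.35 with CDEB and 0.02 with DDEB, with adjusted p from 0.438 to 0.979. Without VC_1 replicate 3 the CDMB value was 0.19 and the CDEB value 0.07.

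Nr1i3 encodes CAR, the receptor through which phenobarbital induces Cyp2b genes. On probe 1 the levels in VC_1 were 1.10, 0.90 and -0.24, and with DDMB 0.98, -0.06 and 0.59. The CDMB arrays read 1.32, 1.16 and 1.31, and the CDEB arrays 1.20, 1.19 and 1.20. In VC_2 the levels were 0.84, 0.65 and -0.59, and with DDEB 0.88, 0.74 and -0.30. The SD of the 3 CDEB arrays was 0.0022, while within each of VC_1, VC_2, DDMB and DDEB a single array lay well below the others. The change was -0.08 ± 0.42 with DDMB, 0.68 with CDMB, 0.61 with CDEB and 0.14 with DDEB (adjusted p from 0.487 to 0.980). Probe 2 gave -0.08, 0.69, 0.67 and 0.18, and across arrays the probes correlated with r = 0.986. Without VC_1 replicate 3 the probe 1 changes were -0.50 with DDMB, 0.27 with CDMB and 0.19 with CDEB.

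Ahr, which encodes the aryl hydrocarbon receptor, varied little. Its levels were -1.24, -1.20 and -1.30 in VC_1 and -1.29, -1.37 and -1.23 with DDMB. They were -1.15, -1.13 and -1.11 with CDMB and -1.21, -1.24 and -1.14 with CDEB. VC_2 gave -1.17, -1.14 and -1.41, and DDEB gave -1.19, -1.10 and -0.93. The CDMB arrays all lay above VC_1 by a small margin, and the DDEB arrays overlapped VC_2, with replicate 3 the highest of all 18. The changes were -0.05 ± 0.08 with DDMB, 0.12 with CDMB, 0.05 with CDEB and 0.17 with DDEB. The 95% intervals ran from -0.23 to 0.12, from -0.06 to 0.29, from -0.13 to 0.22 and from -0.0030 to 0.34, and the adjusted p of the DDEB change was 0.344.

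Ppara encodes PPARalpha, the fatty acid and fibrate receptor of liver. Probe 1 read 2.96, 2.90 and 1.70 in VC_1 and 3.59, 2.61 and 3.06 with DDMB. It read 3.18, 3.17 and 3.28 with CDMB and 3.15, 3.19 and 3.20 with CDEB. In VC_2 it read 2.77, 2.63 and 1.52, and with DDEB 3.07, 2.70 and 1.82. Every CDMB and CDEB array lay above every VC_1 array, whereas DDMB and DDEB overlapped their controls. The changes on probe 1 were 0.57 ± 0.40 with DDMB, 0.69 with CDMB, 0.66 with CDEB and 0.23 with DDEB, with adjusted p from 0.459 to 0.840. On probe 2, which correlated with probe 1 at r = 0.961, the changes were 0.51 ± 0.43, 1.01, 0.76 and 0.49. The CDMB change on that probe, 2.02-fold with a 95% interval from 0.09 to 1.94 on the log2 scale, was the largest of any receptor probe (unadjusted p = 0.0343, limma adjusted p = 0.353), and without VC_1 replicate 3 it was 0.58.

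No call was made for the other PPAR genes or for their shared partner Rxra. Rxra read -1.05, -1.01 and -1.40 in VC_1 and -1.03, -0.98 and -1.58 in VC_2. With CDMB it read -0.91, -0.98 and -0.75 and with CDEB -0.79, -0.92 and -0.83, all above every VC_1 array. Its changes were 0.24 ± 0.14 with DDMB, 0.27 with CDMB, 0.31 with CDEB and 0.24 with DDEB (adjusted p from 0.376 to 0.646). These became 0.11, 0.15 and 0.18 for the first 3 compounds without VC_1 replicate 3, and 0.05 for DDEB without VC_2 replicate 3. Pparg had changes of -0.28 ± 0.17, 0.22, 0.17 and -0.14 in the same order, and Ppard of -0.13 ± 0.13, 0.21, 0.24 and 0.04. Both overlapped their controls in all 4 comparisons.

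Hnf4a encodes HNF4alpha, which sustains the hepatocyte program. Probe 1 read 4.90, 4.83 and 4.04 in VC_1 and 4.92, 4.36 and 4.68 with DDMB. It read 5.14, 5.09 and 5.20 with CDMB and 5.03, 5.11 and 5.08 with CDEB. In VC_2 it read 4.76, 4.71 and 3.91, and with DDEB 4.84, 4.65 and 4.29. The CDMB and CDEB arrays all lay above VC_1, with SDs of 0.06 and 0.04 against 0.48 in VC_1. The changes were 0.06 ± 0.25, 0.55, 0.48 and 0.13 for DDMB, CDMB, CDEB and DDEB (adjusted p from 0.369 to 0.974). Probes 2 and 3 gave CDMB changes of 0.36 and 0.37 and CDEB changes of 0.20 and 0.31, and the 3 probes correlated across arrays with r from 0.884 to 0.921. Without VC_1 replicate 3 the probe 1 change was 0.28 with CDMB and 0.20 with CDEB.

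Nr5a2 encodes LRH-1, a regulator of bile acid and cholesterol genes, and its probe 1 had the smallest residual SD of the 14. It read 2.39, 2.44 and 2.32 in VC_1 and 2.59, 2.51 and 2.55 with DDMB. It read 2.67, 2.57 and 2.56 with CDMB and 2.46, 2.55 and 2.53 with CDEB. In VC_2 it read 2.00, 2.14 and 2.03, and with DDEB 2.15, 2.14 and 2.10. All arrays with DDMB, CDMB or CDEB lay above VC_1, and the DDEB arrays overlapped VC_2. The change of 0.22 ± 0.06 with CDMB had the lowest adjusted p of any receptor probe, 0.202 (unadjusted p = 0.00211). The changes were 0.17 with DDMB (adjusted p = 0.289), 0.13 with CDEB (0.362) and 0.07 with DDEB (0.588). Without VC_1 replicate 3 the first 3 were 0.19 for CDMB, 0.14 for DDMB and 0.10 for CDEB. Probe 2 gave 0.10 with CDMB, 0.09 with DDMB, 0.02 with CDEB and -0.06 with DDEB, and its groups overlapped in each.

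The arrays that stood apart were low for several receptors at once. On VC_1 replicate 3, the difference from the mean of the other VC_1 arrays was -1.24 for Ppara probe 1, -1.24 for Nr1i3 probe 1, -0.86 for Nr1i2 and -0.82 for Hnf4a probe 1. On VC_2 replicate 3 the same differences were -1.18, -1.34, -0.81 and -0.83. DDMB replicate 2 gave -0.72, -0.84, -0.47 and -0.44, and DDEB replicate 3 gave -1.07, -1.11, -0.43 and -0.45. DDMB replicate 1, not among the arrays that stood apart, gave 0.75, 0.71, 0.57 and 0.40. On the arrays that stood apart, Ahr differed by -0.08, -0.26, -0.10 and 0.22 and Nr5a2 probe 1 by -0.10, -0.04, -0.06 and -0.04. The deviation was thus shared by the PXR, CAR, PPARalpha and HNF4alpha genes and was smaller, or of the other sign, for the latter pair. The readout Cyp1a1 was lower on these arrays by more than those 4 receptor probes (-2.01, -1.96, -0.88 and -1.85), and Cyp4a1 was not lower (0.08, 0.05, 0.23 and 0.12).

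Hepatocyte and Kupffer cell markers were lower in their mean on the same arrays, while stellate markers were higher on some of them. The hepatocyte markers lay below the mean of the group's other arrays for 10 of 10 genes on VC_1 replicate 3 and VC_2 replicate 3. They did for 8 of 10 on DDMB replicate 2 and for 6 of 10 on DDEB replicate 3. Their mean level spanned 5.50 to 6.04 over the VC_1 arrays, 5.67 to 6.19 in VC_2, 5.75 to 6.15 with DDMB, 5.96 to 6.20 with DDEB, 6.06 to 6.12 with CDMB and 6.04 to 6.14 with CDEB. Cps1, the first enzyme of the urea cycle, differed by -1.69 on VC_1 replicate 3 and by -1.74 on VC_2 replicate 3. The 3 measured Kupffer cell markers, Cd68, Clec4f and C1qb, had a mean level of -2.62 to -1.33 in VC_1, -2.18 to -0.69 in VC_2, -2.75 to -1.79 with DDMB, -2.25 to -0.80 with DDEB, -1.79 to -1.34 with CDMB and -1.50 to -1.05 with CDEB. All 3 lay below the mean of the group's other arrays on VC_1 replicate 3, VC_2 replicate 3 and DDEB replicate 3. On DDMB replicate 2 this held for 2 of 3. Cd68, a lysosomal protein abundant in macrophages, differed most, by -2.79, -2.71, -2.24 and -2.20 on VC_1 replicate 3, VC_2 replicate 3, DDMB replicate 2 and DDEB replicate 3. In the same order Clec4f differed by -0.49, -1.13, 0.34 and -0.64, and C1qb by -0.53, -0.46, -0.32 and -0.79. In the same order the mean of the tested stellate markers differed by 0.33, 0.20, 0.50 and -0.17. That of the endothelial markers differed by -0.14, -0.02, -0.07 and -0.25, and that of the cholangiocyte markers by -0.13, -0.01, -0.005 and -0.28. That of the adipocyte markers differed by -0.44, -0.38, -0.55 and -0.02. The part of these markers in the receptor values was not tested.

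**Figure D3:**
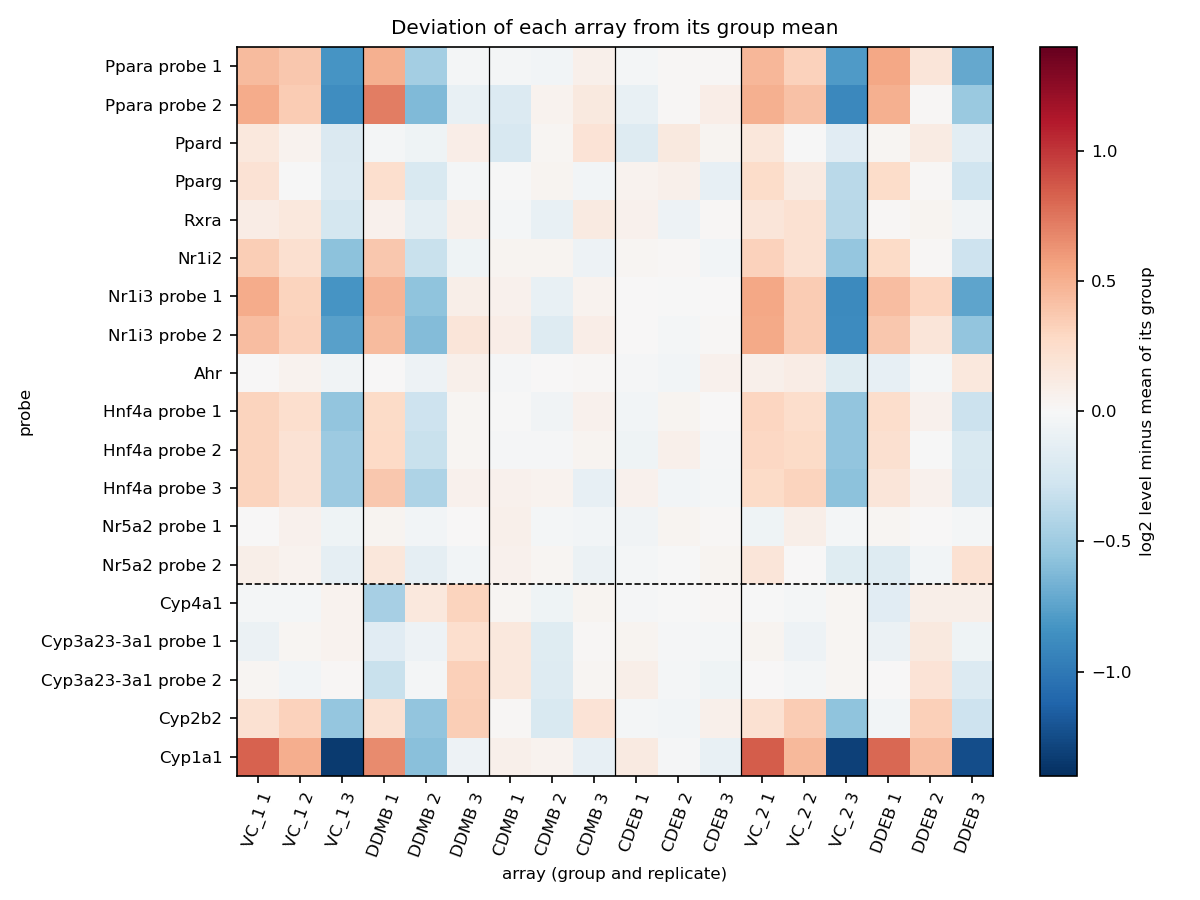
Difference of each array from the mean of its group (colour, log2 units) for the receptor probes and, below the dashed line, the readout probes (rows) on the 18 arrays (columns). VC_1 replicate 3, VC_2 replicate 3, DDMB replicate 2 and DDEB replicate 3 are blue for Ppara, Nr1i2, Nr1i3, Hnf4a, Cyp2b2 and Cyp1a1, and pale for Nr5a2 probe 1.

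Among the readout genes, rises were called in 2 of the 4 comparisons. Whether readout and receptor genes differed in their change was not tested, and their precision differed. The residual SD was 0.18 for Cyp4a1 and 0.12 and 0.17 for Cyp3a23-3a1 probes 1 and 2. Among receptor probes it ran from 0.05 (Nr5a2 probe 1) to 0.57 (Ppara probe 2). Cyp4a1 encodes a fatty acid omega-hydroxylase induced through PPARalpha. It read 2.82, 2.81 and 2.89 in VC_1, 2.53, 3.15 and 3.32 with DDMB, 3.01, 2.92 and 3.02 with CDMB and 3.61, 3.62 and 3.65 with CDEB. In VC_2 it read 2.64, 2.61 and 2.67, and with DDEB 3.50, 3.74 and 3.74. It rose with DDEB by 1.02 ± 0.14, or 2.03-fold (limma adjusted p = 0.00645), and its change with CDEB of 0.79 ± 0.14 had an adjusted p of 0.0565. The DDEB call was lost with the deposited tables (adjusted p = 0.424) and with only the 6 arrays compared (0.379), at the same change of 1.02. The CDMB arrays lay above VC_1 with a change of 0.14, and DDMB overlapped VC_1 with 0.16. Without DDMB replicate 1 the DDMB change was 0.40 (adjusted p = 0.0395).

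Cyp3a23-3a1 encodes a drug-oxidising P450 induced through PXR and carries the repeat printed above. Probe 1 read 7.18, 7.29 and 7.32 in VC_1 and 7.64, 7.72 and 8.03 with DDMB. It read 7.22, 7.11 and 7.21 in VC_2 and 7.86, 8.08 and 7.88 with DDEB. All treated arrays lay above their controls in both comparisons. The gene rose with DDEB by 0.76 ± 0.10 on probe 1 and 0.85 ± 0.14 on probe 2 (adjusted p = 0.00497 and 0.0139). With DDMB it rose by 0.53 ± 0.10 and 0.70 ± 0.14 (adjusted p = 0.0336 and 0.0344). The DDMB call was lost on both probes on leaving out any one VC_1 array, or DDMB replicate 2 or 3, with adjusted p from 0.0667 to 0.163. That of probe 2 with DDEB was lost without VC_2 replicate 1 or 2 or DDEB replicate 2 (adjusted p = 0.0522, 0.0545 and 0.0542). With the deposited tables or only the 6 arrays compared, the calls were lost on both probes with either compound (adjusted p from 0.0745 to 0.501). Probe 1 changed by 0.20 with CDMB and 0.23 with CDEB, neither called. Every CDEB array lay above VC_1 on both probes (15.6% of all tested probes), and every CDMB array did on probe 2 alone (13.3%). Cyp3a2, with the same repeat in its promoter, had changes of 0.35 ± 0.63, 1.16, 0.73 and 0.14 for DDMB, CDMB, CDEB and DDEB, none of them called. These genes are close paralogs, and reads of one by a probe of the other were not tested.

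Cyp2b2, a P450 induced by phenobarbital through CAR, was lower with DDMB in all arrays but was not called. It read 5.33, 5.43 and 4.57 in VC_1 and 4.02, 3.25 and 4.15 with DDMB, groups that do not overlap, with a change of -1.30 ± 0.29 (limma adjusted p = 0.0701). Without VC_1 replicate 3 the change was -1.57 with an adjusted p of 0.0402. It read 5.28, 5.43 and 4.51 in VC_2 and 4.86, 5.23 and 4.60 with DDEB, a change of -0.18, and the CDMB and CDEB changes were 0.19 and 0.23. Cyp1a1, the P450 induced through the aryl hydrocarbon receptor, had the widest spread of the readouts. It read 3.40, 3.08 and 1.23 in VC_1, 3.97, 2.72 and 3.24 with DDMB, 3.73, 3.71 and 3.54 with CDMB and 3.73, 3.59 and 3.50 with CDEB. VC_2 gave 3.97, 3.58 and 1.81, and DDEB gave 4.59, 4.22 and 2.55. The CDMB and CDEB arrays lay above VC_1, with changes of 1.09 ± 0.64 and 1.03 and adjusted p of 0.468 and 0.491. Without VC_1 replicate 3 these changes were 0.42 and 0.37.

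**Figure D4:**
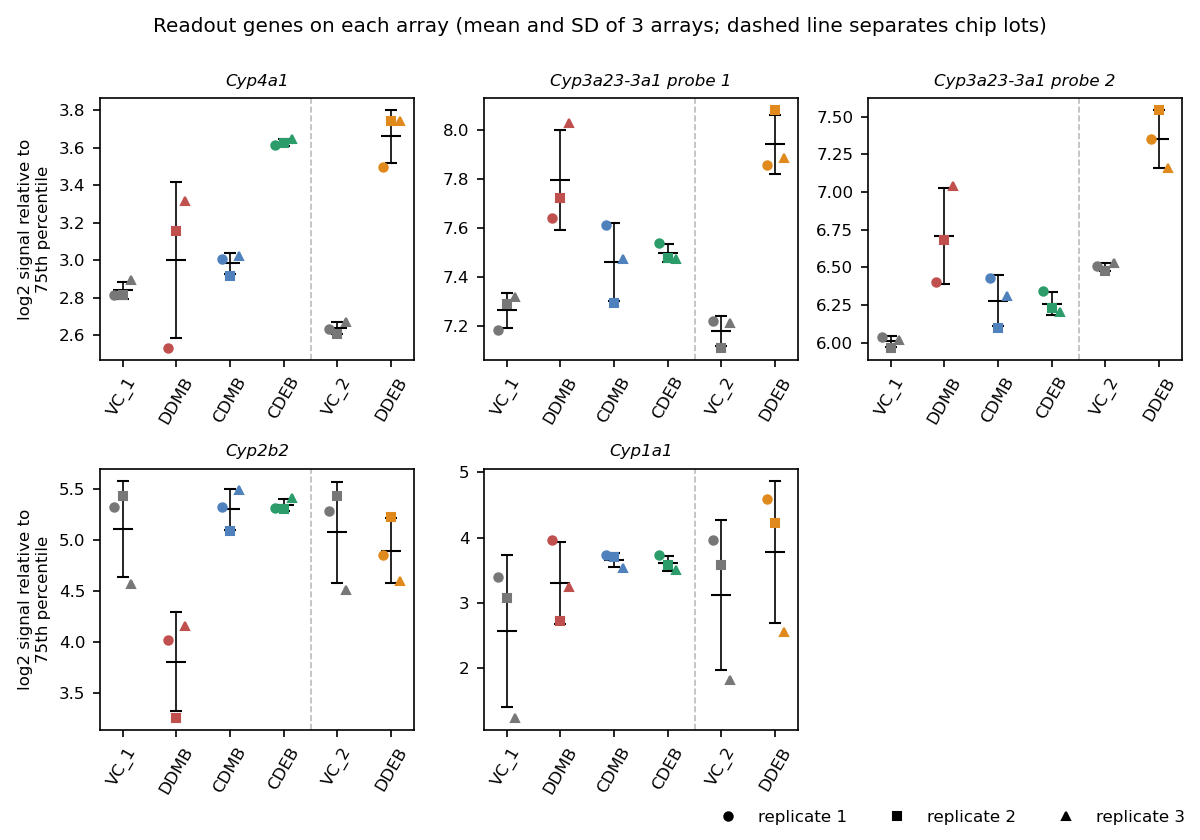
Level of the 5 readout probes on every array, as log2 signal relative to the 75th percentile (y axis, its own scale in each panel), by group (x axis); points are arrays and bars give the mean and SD of 3 arrays. Both Cyp3a23-3a1 probes lie above control on all DDMB, DDEB and CDEB arrays, and probe 2 also on all CDMB arrays. Cyp4a1 lies above control on all CDMB, CDEB and DDEB arrays, and Cyp2b2 lies lowest on the DDMB arrays.

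Across the 18 arrays a receptor and its readout were compared in 4 pairs, each by Pearson's r and Spearman's rho with a permutation test, Benjamini-Hochberg adjusted over the 4. Nr1i3 and Cyp2b2 correlated with r = 0.609 (p = 0.00831, adjusted 0.0332) and rho = 0.624 (p = 0.00710, adjusted 0.0284), and with r = 0.660 without the 2 arrays farthest from the median of Nr1i3. Both genes were low on the 4 arrays that stood apart: Cyp2b2 differed by -0.81 on VC_1 replicate 3, -0.85 on VC_2 replicate 3, -0.84 on DDMB replicate 2 and -0.44 on DDEB replicate 3. Within the slide of VC_1 and DDMB r was 0.537 (exact permutation p = 0.278), and within that of CDMB and CDEB 0.581 (exact permutation p = 0.282), each over 6 arrays. With quantile normalisation the adjusted p of the pooled r was 0.0569. The pooled permutations shuffled all 18 arrays freely across groups, slides and chip lots. They thus take the arrays as independent, and their p-values may be too small.

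The other 3 pairs had no correlation past the threshold. Ppara and Cyp4a1 had r = 0.07 and rho = 0.10 (adjusted permutation p = 0.850 and 0.692), and r = -0.257 without the 2 farthest arrays. Within the slide of VC_1 and DDMB r was -0.276 and rho -0.314, and within that of CDMB and CDEB r was -0.286 but rho 0.371, with r = 0.959 on the 4 arrays left without the 2 farthest. Nr1i2 and Cyp3a23-3a1 had r = -0.05 and rho = -0.13 (adjusted permutation p = 0.850 and 0.692), -0.03 and -0.16 within slides and -0.471 without the 2 farthest arrays. Ahr and Cyp1a1 had r = 0.358 and rho = 0.335 (adjusted permutation p = 0.294 and 0.345), 0.288 and -0.223 within slides and 0.530 without the 2 farthest. On DDEB replicates 2 and 3 Cyp4a1 was at 3.74 on both, while Ppara probe 1 was at 2.70 and 1.82. These arrays lay on different slides and DDEB replicate 3 was among those that stood apart, so they are given as an example only. The 18 arrays hold 6 groups with 3 arrays each, so they are not all independent, and the control sets may also share cultures.

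**Figure D5:**
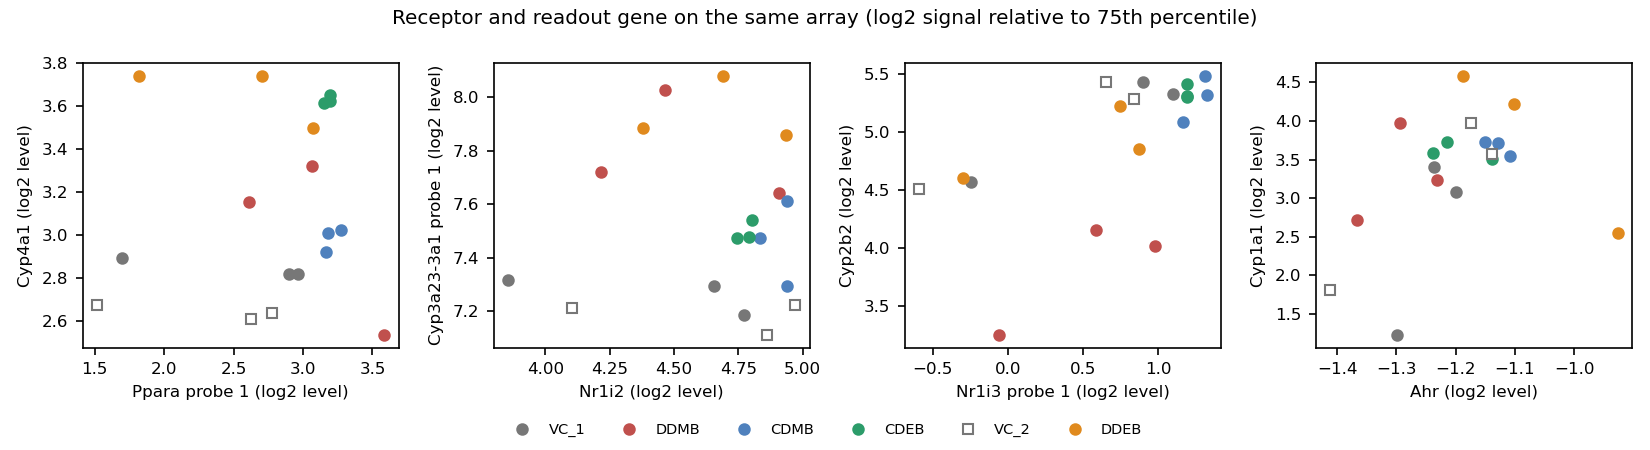
Readout gene against receptor gene on each of the 18 arrays, both as log2 signal relative to the 75th percentile; colours give the groups and open squares VC_2. For Nr1i3 and Cyp2b2 the points rise together (r = 0.609) with the DDMB arrays below the others, and for Ppara and Cyp4a1 they do not (r = 0.07).

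The wider target lists, chosen with earlier results of these data known, showed most calls for PPAR targets with DDEB. Of 39 probes for 30 PPAR target genes, 12 probes of 10 genes rose with DDEB and none fell, against 0.839% of all probes called. The count was 0 with the deposited tables and with only the 6 arrays compared, where no probe at all was called with DDEB, and the median of the list was then 0.46 and 0.47. It was 4 without VC_2 replicate 2, 6 without VC_2 replicate 1, VC_2 replicate 3 or DDEB replicate 2, and 19 with the replicate number as a block. The largest were Cyp4a1, Cyp4a3 (0.88 ± 0.10), another fatty acid hydroxylase, Eci1 (0.87 ± 0.16) of fatty acid oxidation and Acaa1b (0.75 ± 0.14), a peroxisomal thiolase. The median change of the list was 0.47, against 0.10 for the 14 receptor probes in the same comparison. With DDMB 3 of 39 rose, among them Pdk4 (0.67), which restrains glucose oxidation, and Crat (0.57), the carnitine acetyltransferase, named after their values were seen (0.558% of all probes called). That count was 7 without DDMB replicate 1 and 1 without DDMB replicate 3. With CDEB 1 of 39 rose, Cyp4a3 (0.62 ± 0.10, limma adjusted p = 0.0357, against 0.107% of all called), and 0 did on leaving out any one CDEB or VC_1 array. With CDMB 0 did. The medians for DDMB, CDMB and CDEB were 0.16, 0.12 and 0.21.

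The other target lists held 1 or 2 called probes in a comparison at most, where 0.558% of all tested probes were called with DDMB and 0.839% with DDEB. Of 30 probes for 22 PXR and CAR targets, only the 2 of Cyp3a23-3a1 were called, with DDMB and with DDEB, and 0 with CDMB or CDEB. Of 12 probes for 10 aryl hydrocarbon receptor targets, 1 was called, the aldehyde dehydrogenase gene Aldh3a1, which fell with DDMB by 0.94 on the log2 scale (SE 0.11, limma adjusted p = 0.00135). Its probe was dim, with a mean of -4.03 with DDMB and -3.09 in VC_1. The call was lost with normexp background and with only the 6 arrays compared. Of 35 probes for 27 HNF4alpha and LRH-1 targets, 2 were called, both with DDMB, and 1 was on leaving out replicate 2 or replicate 3 of either group. With normexp background 1 was called, and with only the 6 arrays compared 0 were. The 2 called with DDMB were Pck1, the enzyme that commits carbon to glucose synthesis, which rose by 1.16 ± 0.20 (adjusted p = 0.0178), and Tat, the first enzyme of tyrosine breakdown, by 0.68 ± 0.10 (adjusted p = 0.00521). The medians of this list were 0.26 with CDMB and 0.23 with CDEB, and -0.0042 and 0.09 with DDMB and DDEB. Without VC_1 replicate 3 they were 0.05 with CDMB, 0.10 with CDEB and -0.11 with DDMB. Without VC_2 replicate 3 that of DDEB was -0.06.

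Of 34 probes for 24 other nuclear receptor genes, 1 was called with DDMB (0.558% of all probes) and 1 with DDEB (0.839%). The orphan receptor gene Nr4a1 fell with DDMB by 0.64 on the log2 scale (SE 0.13, adjusted p = 0.0403). That call was lost on leaving out replicates 1 or 3 of DDMB or replicates 2 or 3 of VC_1. It was also lost with quantile normalisation, normexp background, the deposited tables, no filter and only the 6 arrays compared. Nr2c1, another orphan receptor, rose with DDEB by 0.39 ± 0.06 (adjusted p = 0.00648), and was not called with the deposited tables or only the 6 arrays compared. Of 22 probes for 14 coregulator genes and of 18 probes for 13 genes of receptor partners and chaperones, such as Arnt and Hsp90ab1, 0 were called in any of the 4 comparisons. The medians of the other nuclear receptors were 0.03, 0.18, 0.17 and 0.06 for DDMB, CDMB, CDEB and DDEB, and those of the coregulators -0.02, 0.02, 0.01 and 0.06. Without VC_1 replicate 3 the medians of the other nuclear receptors were -0.07 with DDMB, 0.07 with CDMB and 0.07 with CDEB. Without VC_2 replicate 3 that of DDEB was 0.02.

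Between compounds, which shared dose and time, no receptor probe was called either. All 6 pairs of compounds were tested, DDEB through its effect over VC_2, with p adjusted over all tested probes and the 6 pairs together. Of 84 tests of receptor probes 0 were called, against 0.172% over all probes, and 4 had an unadjusted p below 0.05. The share of all tested probes below that unadjusted threshold was not counted for these pairs, so the 4 are a description only. All 4 set DDMB against CDMB or CDEB, which lay on different slides, so compound and slide cannot be told apart. Ppard was lower with DDMB than with CDEB, -0.37 (95% interval -0.65 to -0.10, adjusted p = 0.311), and than with CDMB, -0.34 (-0.61 to -0.06, adjusted p = 0.374). Pparg differed by -0.49 (-0.86 to -0.13, adjusted p = 0.318) between DDMB and CDMB and by -0.45 (-0.82 to -0.09, adjusted p = 0.373) between DDMB and CDEB. Those 4 were named after their values were seen. All differences lay between -0.77 and 0.25 and their intervals between -1.83 and 1.50.

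CDMB and CDEB lay on one slide, and their receptor differences spanned the narrowest range of the 6 pairs. CDMB minus CDEB ran from -0.04 to 0.25 over the 14 probes, with intervals from -0.83 to 1.17, so differences up to that size were not resolved. For Nr5a2 probe 1 the interval was -0.04 to 0.21 and for Ahr -0.11 to 0.24. Among readouts, and again across slides, the Cyp2b2 difference was -1.54 (-2.15 to -0.92, adjusted p = 0.0552) between DDMB and CDEB and -1.49 (-2.11 to -0.88, adjusted p = 0.0619) between DDMB and CDMB. The Cyp4a1 difference was -0.64 (-0.95 to -0.34, adjusted p = 0.103) between CDMB and CDEB, and 0.86 (0.43 to 1.29, adjusted p = 0.122) between the DDEB and DDMB effects.

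Ppara, Nr1i2, Nr1i3 and Hnf4a were low together on the arrays that stood apart. The genes whose level followed each receptor most closely over the 18 arrays are given as a description. For Hnf4a these were Dhrs3 (r = 0.992), Nr1i3 (0.982) and Dcaf11 (0.980), so another receptor of the set was among them. For Nr1i3 they were Acox2 (0.987), Fgf21 (0.983) and Slco2b1 (0.982), and for Nr1i2 Nr1h4 (0.975), the bile acid receptor gene, Cdkn1a (0.974) and Ndrg2 (0.969). For Ppara they were Fbxo31 (0.985), Ciapin1 (0.979) and Slc25a29 (0.978). The steadier receptors had weaker or other companions, Ranbp10 (0.866), Zmynd8 (0.866) and Irak1 (0.851) for Ahr and Rab11a (0.967), Trip12 (0.967) and Nucks1 (0.964) for Nr5a2. For Pparg they were F10 (0.967), Lcat (0.963) and Slc2a5 (0.954). For Rxra they were Dhdds (0.947), Sec24c (0.941) and Polr3gl (0.938), and for Ppard Deaf1 (0.874), Mb21d2 (0.857) and Slc3a1 (0.851). Nr5a2 probe 1 was at 2.00 to 2.15 on the VC_2 and DDEB arrays and at 2.32 to 2.67 on all others. It thus differed between chip lots, and the part of the lot in its correlations was not tested.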

How the data were processed

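RNA of the 18 samples was labelled with Cy3 and hybridised singly to Agilent arrays. Agilent Feature Extraction 10.7.1.1 gave the intensity of each spot, per the file headers, and its processed value is background-subtracted and detrended. The authors also deposited tables of scaled linear signal, used as an alternative, with scaling not given in the sources used here. Flags for spot type, outliers, saturation and background are per the file headers. Those headers name build rn4, and no coordinates of that build are reported.

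Each probe's value is the mean log2 processed intensity of its spots without an outlier flag, minus the array's 75th percentile. Probes flagged on any array (435) were left out, and 25267 probes that lay well above background throughout 1 or more groups of 3 were tested. Accessions without version were matched to RefSeq symbols (GRCr8), which named 21109 probes and 16581 genes. No probe matched Cyp2b1, and probes of Cyp2b or Cyp3a paralogs may read each other's RNA. The 6 group means were estimated together by limma 3.58.1 (R 4.3.3), using lmFit and eBayes with 12 residual degrees of freedom. Benjamini-Hochberg adjustment ran over all tested probes of a comparison. Errors of changes are SE of that fit, intervals are at 95%, and adjusted p-values are limma's with n = 3 a group. Correlations used 100000 permutations, or all 720 orders within a slide, in scipy 1.17.1. The fit was tested on simulated data, and precision is limited by the number of arrays.

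The rule for named genes takes every probe of the 9 receptors and 4 readouts, up to 4 called genes with the largest change from each other list, and the 3 genes that correlate best with each receptor. The members and lists were chosen with earlier results of these data known. Same-numbered arrays of compound and control deviated together in some comparisons only (r from -0.424 to 0.561 for DDMB, 0.0145 to 0.0541 for CDMB, 0.00588 to 0.191 for CDEB and 0.0952 to 0.489 for DDEB), so numbers were not taken to pair samples. Alternatives were quantile normalisation, normexp background with offset 50 (on median spot and background intensity, as the files hold no mean spot intensity), the deposited tables, other filters, the brightest probe per gene, only the 6 arrays compared, slide and replicate blocks, and leaving out each array. Some genes of the lists are counted but not reported here by name.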

Additional observations from a re-analysis of the deposited data

How the results depend on the processing

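With limma under every alternative run, 0 of 14 receptor probes were called in each comparison, and 0 of 84 between compounds. Of 904 alternative values of receptor changes, 852 kept their direction and side of the threshold and 52 turned sign, all uncalled. Leaving out each array, or VC_1 and VC_2 replicate 3 together (chosen after seeing the data), turned the sign of these. With DDMB the ranges were -0.184 to 0.275 for Nr1i2, -0.498 to 0.197 and -0.455 to 0.228 for Nr1i3 probes 1 and 2, and -0.213 to 0.216, -0.263 to 0.148 and -0.0917 to 0.382 for Hnf4a probes 1 to 3. With CDEB they were -0.0509 to 0.36 for Hnf4a probe 2 and -0.0471 to 0.057 for Nr5a2 probe 2. Cyp2b2 ran from -0.0798 to 0.353 with CDMB and from -0.0378 to 0.395 with CDEB. With DDEB the ranges were -0.169 to 0.584 for Ppara probe 1, -0.0392 to 0.118 for Ppard, -0.248 to 0.187 for Nr1i2, -0.304 to 0.511 and -0.265 to 0.45 for Nr1i3 probes 1 and 2, -0.147 to 0.281, -0.379 to 0.0466 and -0.243 to 0.196 for Hnf4a probes 1 to 3, and -0.164 to 0.0358 for Nr5a2 probe 2. The low ends came without VC_1 or VC_2 replicate 3, except for that last range, whose low end came without DDEB replicate 3. Otherwise 3 DDEB changes turned sign, Ppard with quantile normalisation (-0.0447), Nr1i2 with normexp (-0.0111) and Hnf4a probe 2 with the slide as a fixed block (0.00718). The counts of all called probes moved more. For DDMB (141) they were 65 with normexp, 61 with no filter, 0 with only the 6 arrays compared, 222 with the slide as a random block and 290 as a fixed block, and 31 (without DDMB replicate 3) to 225 (without DDMB replicate 1) on leaving out arrays. For CDMB (10) they were 6 with quantile normalisation, 2 with normexp, 1 with the deposited tables, 0 with no filter, with only the 6 arrays and with the slide as a random block, 17 when all 18 arrays had to be above background, and 0 to 7 (without CDMB replicate 1) on leaving out arrays. For CDEB (27) they were 7 with normexp, 11 with the deposited tables, 6 with no filter, 45 with all 18 arrays above background, 0 with only the 6 arrays or a random slide block, and 0 (without CDEB replicate 1) to 10 on leaving out arrays. For DDEB (212, of which 149 higher) they were 369 with quantile normalisation (184 higher), 60 with normexp, 0 with the deposited tables or only the 6 arrays, 389 with the slide as a fixed block, and 53 (without VC_2 replicate 1) to 389 (without DDEB replicate 3). With the replicate number as a block, which the labels do not tie to a shared culture, the counts were 18 for CDMB, 41 for CDEB and 455 for DDEB. The Cyp4a1 change with CDEB was called in that block (adjusted p = 0.0469) and with all 18 arrays above background (0.0411). The Cyp4a1 and Cyp3a23-3a1 calls with DDEB were lost with the deposited tables (adjusted p from 0.424 to 0.469) and with only the 6 arrays (0.379 to 0.481), where fewer arrays set the spread. The Cyp3a23-3a1 calls with DDMB were lost with quantile normalisation (0.126 and 0.0944), the deposited tables (0.0745), no filter (0.108 and 0.104) and only the 6 arrays (0.490 and 0.501). Cyp2b2 with DDMB was called with quantile normalisation (0.0441) and with the slide as a random (0.0478) or fixed block (0.0498). The Ppara and Cyp4a1 r turned to -0.276 and -0.286 within slides (rho -0.314 and 0.371) and that of Ahr and Cyp1a1 to -0.223 within the slide of CDMB and CDEB. That of Nr1i3 and Cyp2b2 no longer passed within slides (0.537 and 0.581) or with quantile normalisation (0.572). The cause was not tested.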
